A study of Mus musculus with 12 samples.

Results

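The 10 genes described here encode FGF ligands (Fgf1, Fgf2), FGF receptors (Fgfr1, Fgfr2, Fgfr3, Fgfr4), the HGF receptor MET and its ligand (Met, Hgf) and a pair of ephrin ligands (Efna1, Efna2), chosen by symbol because these signals have been linked to escape from VEGF blockade. They are 10 of the 38924 gene identifiers counted, and all 10 passed the filter on low counts that left 16645 genes. RNA was sequenced from 12 PanNETs (pancreatic neuroendocrine tumors, here insulinomas) of RIP1Tag2 mice on the C57Bl6 strain, in which an insulin promoter drives a viral T antigen in beta cells. The 12 tumors, with this transgene in common, comprised 4 from control mice given saline (tumors 1, 2, 3 and 4), 4 from mice given sunitinib (tumors 5, 6, 8 and 12) and 4 from mice given rapamycin plus sunitinib (R+S, tumors 4, 5, 7 and 10). Sunitinib inhibits VEGF and PDGF receptors and other kinases, and rapamycin inhibits mTORC1. Treatment lasted 4 days from 15.5 weeks of age. The question was how these genes stood in tumors under VEGF receptor blockade, with and without mTOR inhibition.

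FGFs bind FGF receptor tyrosine kinases together with heparan sulfate and activate the ERK cascade, whose output is damped by SPRY, SPRED and DUSP6 feedback proteins. HGF, made mainly by stromal cells as an inactive precursor, is cleaved by serine proteases before it activates MET. Ephrins are membrane-bound ligands of the Eph receptors, and ephrin-A1, ephrin-B2 and their receptors EphA2 and EphB4 are known for roles in vessel growth. FGF ligands and ephrin-A1 have been described in RIP1Tag2 tumors that resume vessel growth under VEGF receptor blockade. The tumors here were treated for 4 days, and regrowth of vessels was not measured in them.

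The reads assigned to genes numbered 31872342 to 44215054 in a tumor, and values are given as normalized CPM, the usual depth-scaled counts after TMM scaling. Sunitinib tumor 6 stood apart: 8 beta-cell markers summed to 1663 CPM in it and to between 29967 and 75720 CPM in the other 11 tumors, and its level was the highest of the 12 tumors for 22.6% of tested genes. The sum of 25 acinar markers was 12819 to 45832 CPM in the sunitinib tumors, 3459 to 19321 CPM in R+S and 42.6 to 143 CPM in controls, where Amy2a5 and Ptf1a were at 0. The sum of 12 endothelial markers was 597 to 804 CPM in controls, 67.7 to 107 with sunitinib and 129 to 167 with R+S. In bulk tumors, fewer cells of a type and less RNA per cell cannot be told apart. The label prefix of a tumor, whose meaning the labels do not state, was shared by the 4 controls, by sunitinib tumors 5, 6 and 8 and by R+S tumors 5 and 7, but never between groups, so prefix and treatment cannot be told apart.

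No member passed an adjusted p of 0.05 in any comparison (edgeR quasi-likelihood test, 12 tumors). The counts were 0 of 10 members for sunitinib against control, where 4.48% of all tested genes passed, 0 of 10 for R+S against control (4.16%) and 0 of 10 for R+S against sunitinib (7.21%). At an unadjusted p under 0.05, 0, 1 and 1 members were found, Efna1 in the second comparison and Efna2 in the third, where 19.5%, 20.1% and 30.4% of all genes were. DESeq2 called 0, 1 and 0 members, the 1 being Efna1, with 8.87%, 10.1% and 18.3% of all genes called. Efna1 was the member farthest from control: it lay below every control tumor in the 4 R+S tumors and in 3 of 4 sunitinib tumors, with group means of 3.61 CPM in R+S and 10.4 CPM in controls, and above every control tumor in sunitinib tumor 6.

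**Figure D1:**
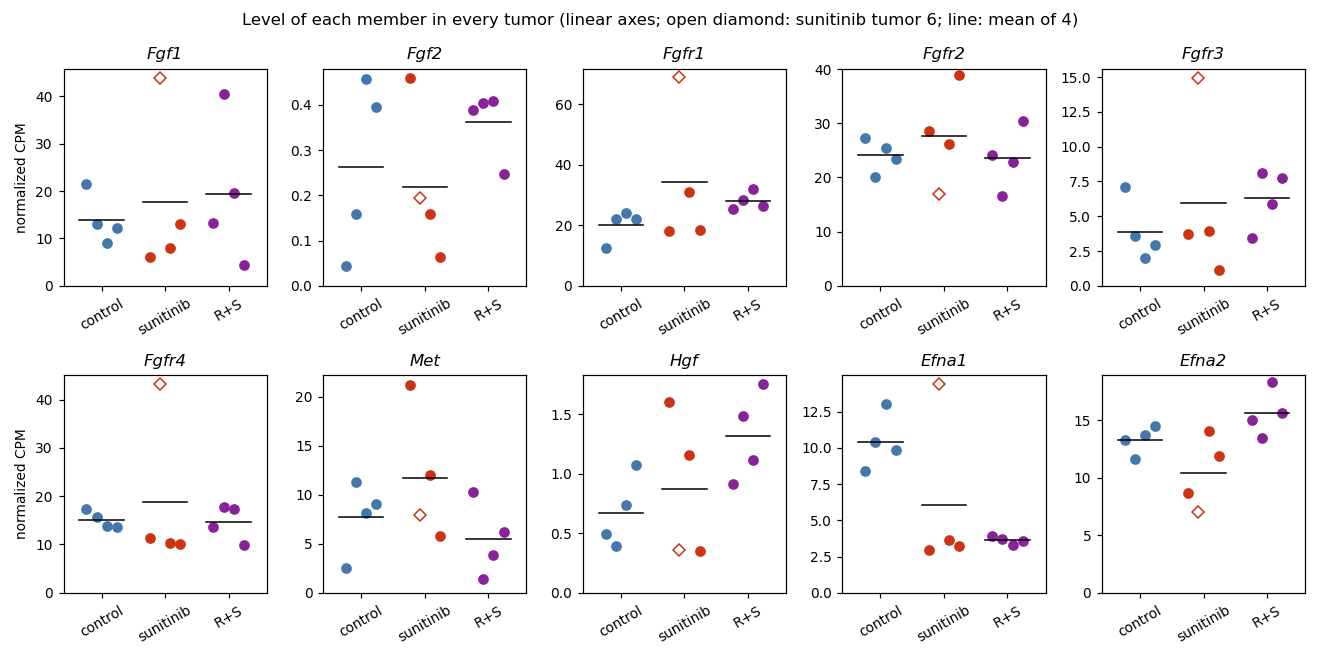
Normalized CPM (y axis, linear, from 0) of the 10 members in each of 12 tumors, grouped by treatment on the x axis; points are tumors, lines are means of 4, and the open diamond is sunitinib tumor 6. Tumor 6 was the highest of all 12 tumors for Fgf1, Fgfr1, Fgfr3, Fgfr4 and Efna1, and the 4 R+S tumors had between 3.29 and 3.94 CPM of Efna1, below the control tumors at 8.43 to 13.0 CPM.

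Levels of different genes were compared per kb of exon. In control tumors the ephrins stood first, with medians of 6.34 CPM per kb for Efna2 and 5.54 for Efna1, followed by Fgfr4 at 4.14. Fgfr2 (2.37), Fgf1 (2.32) and Fgfr1 (2.23) formed a middle group, then came Met (1.12) and Fgfr3 (0.456), and Hgf (0.0854) and Fgf2 (0.0408) were last. In this order the ranges of neighbours overlapped except between Fgfr4 and Fgfr2 and between Fgfr3 and Hgf. Efna1 stood sixth by its median in both treated groups, at 1.87 CPM per kb with sunitinib, where tumor 6 reached 7.88, and at 1.97 with R+S. Efna2 stood first in all 3 groups.

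Fgf1 encodes acidic FGF, a ligand of all FGF receptors (ENSMUSG00000036585, GRCm38 chromosome 18, 38838673 to 38929472, minus strand). Its level was 21.6, 13.0, 9.05 and 12.3 CPM in control tumors 1, 2, 3 and 4. In sunitinib tumors 5, 6, 8 and 12 it was 6.10, 43.9, 8.07 and 13.0 CPM, and in R+S tumors 4, 5, 7 and 10 it was 13.3, 40.5, 19.7 and 4.31 CPM. A single tumor in each treated group was thus high, and the groups overlapped. The log2 fold changes were 0.34 (SE 0.69) for sunitinib against control, 0.47 (0.69) for R+S against control and 0.13 (0.69) for R+S against sunitinib, with intervals from -1.16 to 1.85 in the first of these. Without tumor 6 the sunitinib value turned to -0.63 (SE 0.59, adjusted p = 0.581), and the R+S against sunitinib value went from 0.13 to 1.10 (adjusted p = 0.217).

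Fgf2 encodes basic FGF, an angiogenic ligand without a classical secretion signal (ENSMUSG00000037225, chromosome 3, 37348346 to 37410108, plus strand). It was close to absent from these libraries, with 2 to 18 reads per tumor in controls, 2 to 18 with sunitinib and 10 to 16 with R+S. The control tumors had 0.0428, 0.159, 0.457 and 0.395 CPM, the sunitinib tumors 0.459, 0.193, 0.158 and 0.0642 CPM, and the R+S tumors 0.388, 0.404, 0.408 and 0.248 CPM. The groups overlapped, and the 95% interval of the R+S against control difference, -0.91 to 1.85 on the log2 scale around 0.47, leaves a change in either direction undetected at this depth. Nudt6 lies on the opposite strand and shares 640 exon bases, 9.44% of the Fgf2 exon length, and had 1837 reads over all tumors against 128 for Fgf2. The strand setting of the counting is not given in the sources used here, so the division of reads between the 2 genes is uncertain.

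Among the receptors, Fgfr4, which responds to FGF19-type hormones with the co-receptor beta-Klotho as well as to other FGFs, had the largest share of the 4 receptor transcripts per kb in every control tumor, between 42.7% and 49.7%. Fgfr2 had 21.4% to 27.2%, Fgfr1 13.1% to 27.0% and Fgfr3 3.05% to 10.1%. The sum of the 4 was narrow in controls, 8.76 to 9.80 CPM per kb, and was 9.26 to 11.2 in R+S tumors. With sunitinib it was 8.34 to 22.95, and the upper value was tumor 6, where Fgfr4 made up 53.3%, Fgfr1 30.4%, Fgfr3 9.08% and Fgfr2 7.18%. No other tumor had an Fgfr2 share under 15.04%. Fgfr4 did not have the largest share in every treated tumor. Fgfr1 exceeded it in sunitinib tumor 8 (34.4% against 31.9%). Fgfr2 exceeded it in sunitinib tumor 12 (43.8% against 32.8%) and in R+S tumor 10 (31.0% against 29.4%). In the other treated tumors Fgfr4 had the largest share.

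**Figure D2:**
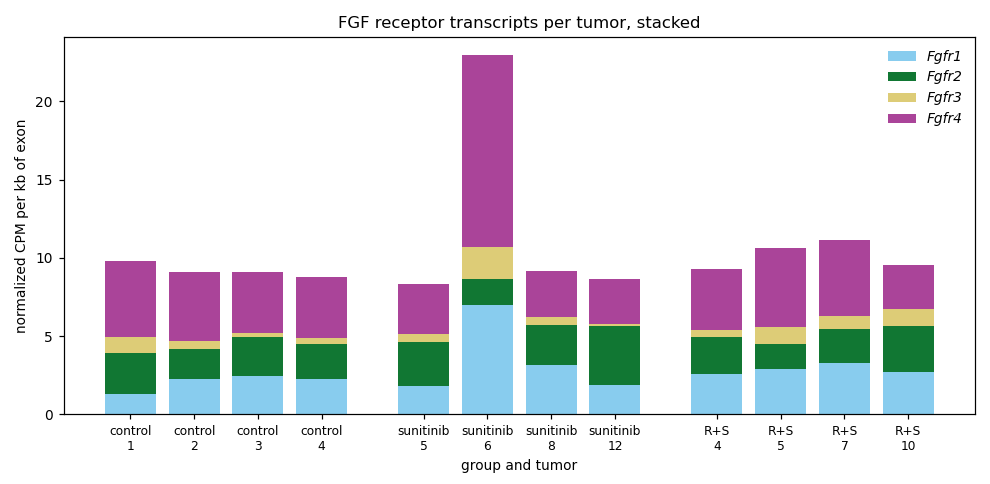
Stacked normalized CPM per kb of exon (y axis, from 0) of Fgfr1, Fgfr2, Fgfr3 and Fgfr4 in each of the 12 tumors (x axis, by group). The total was 22.95 in sunitinib tumor 6 and between 8.34 and 11.2 in the other 11 tumors.

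Fgfr1 (ENSMUSG00000031565, chromosome 8, 25513654 to 25575718, plus strand) is the FGF receptor most often expressed in mesenchyme and endothelium. Its level was 12.6, 22.0, 24.2 and 22.0 CPM in control tumors, 18.1, 69.0, 31.2 and 18.3 CPM in sunitinib tumors and 25.5, 28.3, 32.1 and 26.5 CPM in R+S tumors. All 4 R+S tumors lay above all 4 controls, as 11.6% of tested genes did. The log2 fold change was 0.48 (SE 0.38, 95% interval -0.36 to 1.31, edgeR adjusted p = 0.515) for R+S and 0.76 (SE 0.38, adjusted p = 0.302) for sunitinib. The exact permutation test gave p = 0.0286 for R+S, the smallest that 4 against 4 tumors allow. Without tumor 6 the sunitinib value was 0.16 (SE 0.24, adjusted p = 0.742), and the R+S against sunitinib value turned from -0.28 to 0.32.

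Fgfr2 (ENSMUSG00000030849, chromosome 7, 130162451 to 133123350, minus strand), a receptor with epithelial and mesenchymal splice forms that the gene counts sum, differed little between the group means. Controls had 27.4, 19.999, 25.5 and 23.5 CPM, sunitinib tumors 28.6, 17.0, 26.2 and 39.0 CPM, and R+S tumors 24.2, 16.5, 22.8 and 30.5 CPM. All 3 groups overlapped. The annotated span holds a long transcript that reaches Ctbp2 and shares 314 exon bases with it on the same strand, 3.04% of the exon length used for the per-kb values, and the RefSeq promoter window found for Fgfr2 ends at 130267058. The log2 fold changes were 0.20 with sunitinib (95% interval -0.33 to 0.73) and -0.03 with R+S (-0.56 to 0.49).

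Fgfr3 (ENSMUSG00000054252, chromosome 5, 33721674 to 33737068, plus strand), the receptor known for restraining bone growth, had 7.10, 3.60, 1.98 and 2.93 CPM in controls, 3.75, 14.9, 3.96 and 1.16 CPM with sunitinib and 3.47, 8.08, 5.85 and 7.75 CPM with R+S. Fgfr4 (ENSMUSG00000005320, chromosome 13, 55152640 to 55168759, plus strand) had 17.3, 15.6, 13.7 and 13.6 CPM in controls, 11.4, 43.3, 10.3 and 10.0 CPM with sunitinib and 13.7, 17.8, 17.4 and 9.90 CPM with R+S. Tumor 6 was 5.05 times the mean of the 3 other sunitinib tumors for Fgfr3 and 4.10 times for Fgfr4. Without it, the sunitinib log2 fold change of Fgfr4 turned from 0.32 to -0.51 (SE 0.20, adjusted p = 0.192), with all 3 remaining tumors below every control, as was so for 8.52% of tested genes. That of Fgfr3 turned from 0.61 to -0.40 (SE 0.50, adjusted p = 0.692). With R+S the values were 0.69 (SE 0.65) for Fgfr3 and -0.04 (SE 0.44) for Fgfr4. G630022F23Rik lies on the strand opposite Fgfr3 and shares 998 exon bases with it, 13.9% of the Fgfr3 exon length. It was not among the genes counted. As the strand setting is not given, reads from it may be in the Fgfr3 counts.

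Met (ENSMUSG00000009376, chromosome 6, 17463800 to 17573980, plus strand) encodes the HGF receptor tyrosine kinase, a known target of hypoxia-inducible factor in other tumors. Its promoter is shown because the core of the hypoxia response element occurs in it: the letters ACGTG or GCGTG, searched on both strands, matched at 3 places, 2 of which overlap on CACGTG, and capitals mark them. The window runs from 250 bases before to 50 after the RefSeq start on GRCm38.p6. These letters occur in 43.8% of 32851 promoters of the same length, and in 8 of the 11 windows found for 8 of the 10 members, so the match is a description of the window only.
Met, chr6:17463707-17464006, plus strand: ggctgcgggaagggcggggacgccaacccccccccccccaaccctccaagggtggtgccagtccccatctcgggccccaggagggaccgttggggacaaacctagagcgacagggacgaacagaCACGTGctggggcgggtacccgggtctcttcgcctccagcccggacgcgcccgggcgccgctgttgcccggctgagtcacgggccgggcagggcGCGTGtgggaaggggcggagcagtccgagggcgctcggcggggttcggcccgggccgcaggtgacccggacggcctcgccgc

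Met had 2.57, 11.3, 8.17 and 9.10 CPM in control tumors. It had 21.2, 7.93, 12.0 and 5.78 CPM in sunitinib tumors and 10.3, 1.41, 3.86 and 6.24 CPM in R+S tumors. The spread within each group was wide, from 1.41 to 10.3 CPM in R+S alone, and all groups overlapped. The log2 fold change was 0.59 (SE 0.60) with sunitinib, -0.52 (SE 0.60) with R+S and -1.11 for R+S against sunitinib (SE 0.61, 95% interval -2.43 to 0.22, edgeR adjusted p = 0.234).

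Hgf (ENSMUSG00000028864, chromosome 5, 16553495 to 16620152, plus strand) encodes the MET ligand and had only 11 to 71 reads per tumor. Controls had 0.492, 0.397, 0.736 and 1.07 CPM, sunitinib tumors 1.61, 0.359, 1.16 and 0.353 CPM, and R+S tumors 0.915, 1.49, 1.11 and 1.76 CPM. The R+S tumors were mostly above the controls, with control tumor 4 overlapping them. The R+S log2 fold change was 0.97 (SE 0.51, 95% interval -0.15 to 2.09), which did not pass (edgeR adjusted p = 0.311, exact permutation p = 0.0571). With sunitinib it was 0.38 (SE 0.51, adjusted p = 0.717). Of the 50-base words of the Hgf transcripts, 6.02% also occur in the predicted gene Gm43489. That gene overlaps Hgf on the same strand, with 484 shared exon bases. It was not among the genes counted, so this overlap gave the Hgf reads no other counted gene to fall on.

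Efna1 encodes ephrin-A1, an EphA2 ligand first described as a gene induced by TNF in endothelial cells, and it can also be made by tumor cells (ENSMUSG00000027954, chromosome 3, 89271733 to 89281142, minus strand). It has 2 RefSeq start sites, whose reads the gene counts sum, and their promoters are shown because they differ for the same hypoxia response core. The upstream one holds 1 match, in capitals (CACGC is GCGTG on the other strand), and the downstream one none. The sequences run in the direction of transcription.
Efna1 upstream start, chr3:89280902-89281201, minus strand: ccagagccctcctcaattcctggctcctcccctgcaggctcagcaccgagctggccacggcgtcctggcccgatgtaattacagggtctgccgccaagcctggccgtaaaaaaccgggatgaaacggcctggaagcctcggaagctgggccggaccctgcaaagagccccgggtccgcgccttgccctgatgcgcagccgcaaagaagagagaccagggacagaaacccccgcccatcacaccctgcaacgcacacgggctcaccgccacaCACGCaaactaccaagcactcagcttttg
Efna1 downstream start, chr3:89279596-89279895, minus strand: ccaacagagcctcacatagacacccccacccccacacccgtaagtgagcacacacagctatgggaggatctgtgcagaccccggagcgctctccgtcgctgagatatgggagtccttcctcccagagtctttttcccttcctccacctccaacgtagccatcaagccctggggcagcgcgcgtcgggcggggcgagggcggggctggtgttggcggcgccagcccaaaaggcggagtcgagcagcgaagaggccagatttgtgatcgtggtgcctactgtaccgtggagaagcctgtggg

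The level of Efna1 was 8.43, 10.4, 13.0 and 9.84 CPM in control tumors 1, 2, 3 and 4. In sunitinib tumors 5, 6, 8 and 12 it was 2.96, 14.4, 3.64 and 3.21 CPM, and in R+S tumors 4, 5, 7 and 10 it was 3.94, 3.69, 3.29 and 3.54 CPM. The 7 treated tumors other than sunitinib tumor 6 thus lay below all controls, and tumor 6 lay above all of them. R+S against control gave a log2 fold change of -1.53 (SE 0.46, 95% interval -2.54 to -0.51), with an unadjusted p of 0.00669 and an adjusted p of 0.0895 by edgeR. The 4 R+S tumors did not overlap the controls (exact permutation p = 0.0286), as was so in this direction for 11.9% of tested genes. Sunitinib against control gave -0.78 (SE 0.46, adjusted p = 0.371).

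Tumor 6 entered the spread of all comparisons, and the Efna1 result turned on it. With tumor 6 left out, sunitinib against control was -1.67 (SE 0.20, adjusted p = 0.000467), past the threshold, as 3.34% of tested genes were in this direction. With tumor 6 left out of the shared spread, a setting chosen after the data had been seen, R+S against control was -1.53 (SE 0.18, adjusted p = 0.000473), where 5.56% of genes passed in this direction. Fitting the 8 tumors of that comparison alone gave -1.54 (SE 0.17, adjusted p = 0.00114, 9.11% of genes passing in this direction). R+S against sunitinib went from -0.74 (SE 0.46, adjusted p = 0.288) to 0.15 (SE 0.19, adjusted p = 0.619) without tumor 6. The sunitinib and R+S comparisons share the 4 control tumors.

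Endothelial markers were lower than control in both treated groups, as Efna1 was outside sunitinib tumor 6. Of the 12 markers, 11 were called lower in each treated group, with a median log2 fold change of -2.93 with sunitinib and -1.92 with R+S. In R+S against sunitinib 7 were called higher, where Efna1 was -0.74 (SE 0.46) and not called. Kdr, which encodes VEGFR2, had a mean of 96.8 CPM in controls, 3.39 with sunitinib and 7.70 with R+S. Acinar markers were called higher in both treated groups, 22 of 24 tested in each. The part of either list in the Efna1 values was not tested. In tumor 6 the markers summed to 107 CPM, the highest of the sunitinib tumors and below every control, while Efna1 was 4.41 times the mean of the 3 other sunitinib tumors.

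Efna2 encodes ephrin-A2, a ligand studied mainly in axon guidance (ENSMUSG00000003070, chromosome 10, 80179482 to 80190010, plus strand). It did not follow Efna1. Its level was 13.3, 11.7, 13.8 and 14.5 CPM in controls, 8.65, 7.02, 14.1 and 11.9 CPM with sunitinib and 14.98, 13.5, 18.3 and 15.6 CPM with R+S. Tumor 6 was the lowest of all 12 tumors, as for 22.5% of tested genes. R+S against sunitinib gave 0.58 on the log2 scale (SE 0.21, 95% interval 0.12 to 1.05), which did not pass (edgeR adjusted p = 0.0974, exact permutation p = 0.0571), and was 0.44 without tumor 6 (adjusted p = 0.125). Against control, Efna2 was -0.35 (SE 0.21) with sunitinib and 0.23 (SE 0.21) with R+S.

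**Figure D3:**
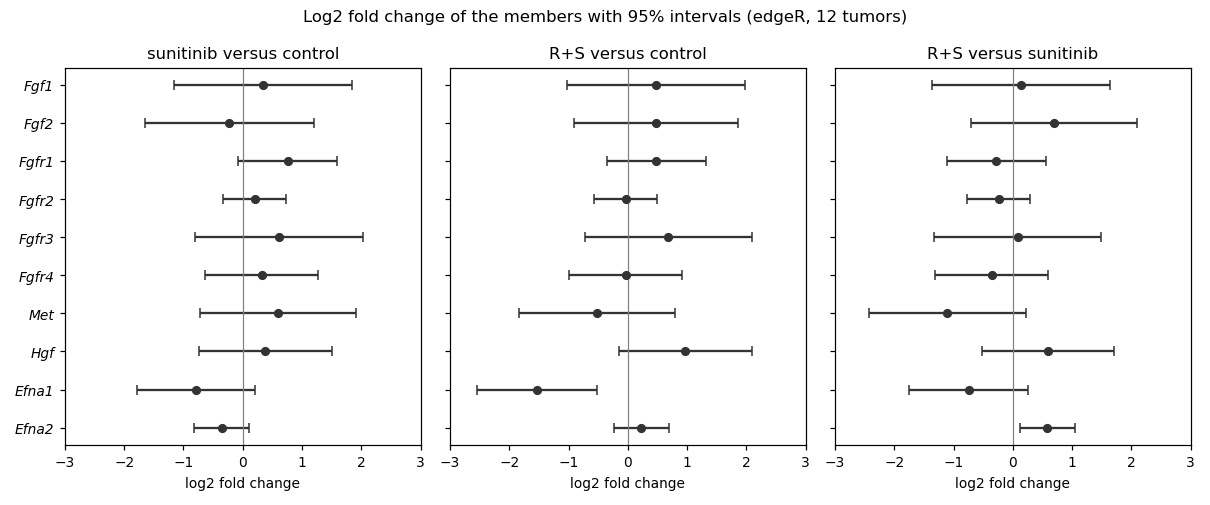
Log2 fold change (x axis) of each member (y axis) in the 3 comparisons, with 95% intervals from the edgeR fit to 12 tumors; the vertical line is 0. The intervals of Efna1 in R+S against control (-2.54 to -0.51) and of Efna2 in R+S against sunitinib (0.12 to 1.05) do not include 0 before adjustment for 16645 genes.

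The median log2 fold change of the 10 members was 0.33 with sunitinib, 0.35 with R+S and -0.08 for R+S against sunitinib, beside 0.03, 0.01 and -0.02 over all tested genes. Of the 10, 7 were above 0 with sunitinib and 6 with R+S. Without sunitinib tumor 6 the sunitinib median turned to -0.18, with 4 of 10 above 0, and the R+S against sunitinib median to 0.39, with 8 of 10 above 0, in place of 5 of 10.

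Among 79 further genes of the same pathways, 62 were tested. Sunitinib against control called 2 higher and 2 lower, R+S against control 1 higher and 1 lower, and R+S against sunitinib 1 higher and 2 lower. The shares of all tested genes called were 1.93% higher and 2.55% lower, 1.55% and 2.61%, and 2.63% and 4.58%. By adjusted p, an Eph receptor stood first in both comparisons with control. Ephb4, the ephrin-B2 receptor that marks venous endothelium, fell in both treated groups: it had 13.2, 13.4, 15.4 and 13.8 CPM in controls, 3.73, 5.22, 4.64 and 2.73 CPM with sunitinib and 6.46, 5.13, 4.02 and 4.01 CPM with R+S. Neither treated group overlapped the controls, as was so in this direction for 5.76% of tested genes with sunitinib and 11.9% with R+S. The log2 fold change was -1.77 (SE 0.24, edgeR adjusted p = 0.00106) with sunitinib and -1.51 (SE 0.24, adjusted p = 0.00467) with R+S, and each call held with any 1 tumor left out. With the acinar score as a covariate, 0 of all 16645 genes passed in either comparison with control (edgeR, 834 and 750 at an unadjusted p under 0.05), and Ephb4 was -2.25 (SE 0.98) with sunitinib and -1.91 (SE 0.83) with R+S.

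Epha2, the main receptor of ephrin-A1, fell with sunitinib from 4.00, 6.24, 7.18 and 6.34 CPM in controls to 1.40, 3.90, 1.24 and 0.802 CPM (log2 fold change -1.69, SE 0.43, adjusted p = 0.0493), and without tumor 6 it was -2.36 (SE 0.29, adjusted p = 0.000615). In R+S it had 2.16, 2.53, 1.96 and 1.73 CPM, below every control, as 11.9% of tested genes were. It passed there with DESeq2 and with tumor 6 left out of the shared spread (edgeR adjusted p = 0.00492). Epha7, a further EphA receptor, rose with R+S, from 29.5, 43.0, 32.6 and 34.1 CPM in controls to 70.8, 126, 73.5 and 51.2 CPM (1.21, SE 0.31, adjusted p = 0.0494), and had 66.7, 43.7, 45.6 and 25.3 CPM with sunitinib. The Epha2 call was lost without any 1 control and without sunitinib tumor 5, 8 or 12, and the Epha7 call without any 1 control and without R+S tumor 4, 5 or 7. Of 13 Eph receptors tested, 0 were called higher and 2 lower with sunitinib, and 1 higher and 1 lower with R+S. Of 4 other ephrins, none was called (edgeR, 2, 1 and 1 at an unadjusted p under 0.05 in the 3 comparisons). Efnb2, the EphB4 ligand that marks arterial endothelium, picked here after its values had been seen, had 14.6, 22.8, 25.9 and 24.4 CPM in controls, 9.16, 16.1, 8.76 and 4.36 CPM with sunitinib and 9.71, 9.82, 9.14 and 7.67 CPM with R+S. Its adjusted p was 0.0668 with sunitinib and 0.0517 with R+S, and DESeq2 called it lower in both. Against control, the endothelial markers given above fell in both treated groups, as the group means of Ephb4, Epha2 and Efnb2 did. The part of these markers was not tested.

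**Figure D4:**
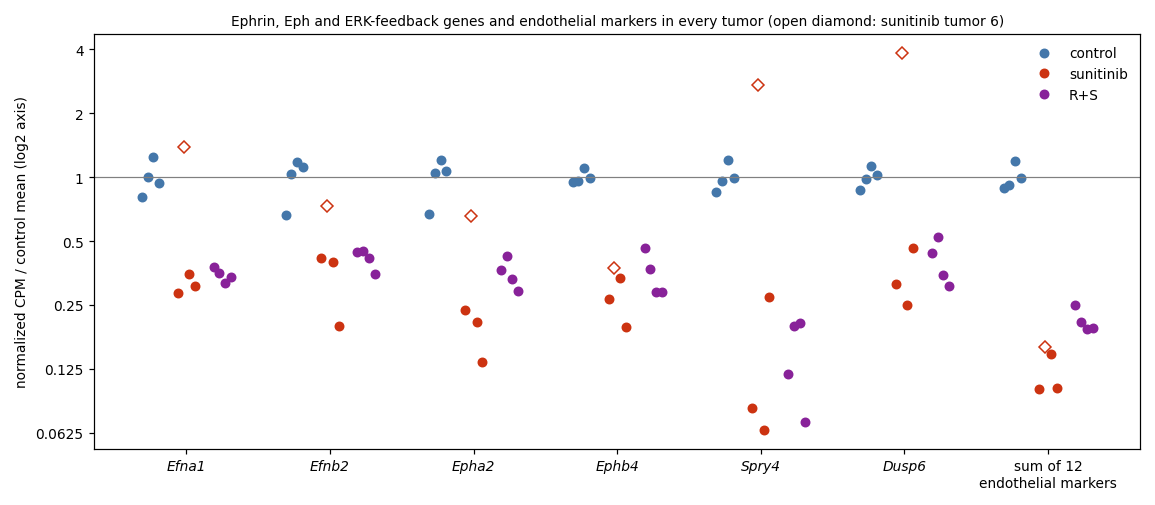
Normalized CPM divided by the control mean (y axis, log2 scale) in each of 12 tumors for Efna1, Efnb2, Epha2, Ephb4, Spry4, Dusp6 and the sum of 12 endothelial markers (x axis); points are tumors and the open diamond is sunitinib tumor 6. In tumor 6 Efna1, Spry4 and Dusp6 lay above the controls, at 14.4, 21.03 and 57.5 CPM, while Ephb4 and the endothelial sum lay below them, at 5.22 and 107 CPM.

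In the edgeR fit of 12 tumors, none of the 11 genes of the FGF and ERK feedback list was called in either treatment against control. At an unadjusted p under 0.05 there were 0 with sunitinib and 3 with R+S, and the median log2 fold change was 0.29 and -0.57. Without tumor 6 the sunitinib median turned to -0.51, with 10 of 11 genes below 0 in place of 3 of 11. DESeq2 called none either, but gave no adjusted p for Spry4, Dusp6 and Etv5. Fitting the 8 tumors of R+S against control alone called Dusp6, Etv4, Spry1 and Spry4 lower, where 9.11% of all genes passed in this direction. Leaving tumor 6 out of the shared spread, chosen after the data had been seen, called the same genes (5.56% of all genes). With prefixes summed, Etv4 and Spry4 were called lower. Of the 11 genes, 4 lay below all controls in R+S without overlap, as did 11.9% of all tested genes. Spry4 and Dusp6, picked after their values had been seen, show the split by tumor 6. Spry4, which encodes a feedback inhibitor of receptor tyrosine kinase signaling, had 6.59, 7.49, 9.33 and 7.70 CPM in controls, 0.638, 21.03, 0.501 and 2.12 CPM with sunitinib and 0.915, 1.54, 1.60 and 0.545 CPM with R+S. Dusp6, an ERK phosphatase, had 13.0, 14.6, 16.8 and 15.2 CPM in controls, 4.67, 57.5, 3.72 and 6.90 CPM with sunitinib and 6.58, 7.80, 5.17 and 4.56 CPM with R+S. In both genes 7 treated tumors were below every control and tumor 6 above, as for Efna1. The R+S log2 fold change of Spry4 was -2.75 (SE 1.01, adjusted p = 0.154), and with tumor 6 left out of the shared spread its adjusted p was 0.00541. With all 4 sunitinib tumors, sunitinib against control was -0.36 (SE 0.94, edgeR adjusted p = 0.860) for Spry4 and 0.29 (SE 0.72, adjusted p = 0.853) for Dusp6. Without tumor 6 these values were -2.85 (adjusted p = 0.00837) and -1.55 (adjusted p = 0.00401), where 3.34% of tested genes passed in this direction. Both genes were picked for this split, so the values without tumor 6 describe it and do not test it. Etv4, an ERK-induced transcription factor, was lower in R+S than in sunitinib (-2.95, SE 0.79, adjusted p = 0.0456), with 0.204, 3.23, 0.211 and 1.09 CPM in the sunitinib tumors and 0.166, 0.152, 0.136 and 0.149 CPM in the R+S tumors, and was not called without tumor 6 (-1.69, adjusted p = 0.0725), without sunitinib tumor 12 or without any 1 R+S tumor.

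Of 12 FGF co-receptors, binding proteins and adaptors tested, 1 was called. Klb, which encodes beta-Klotho, the co-receptor through which FGFR4 and FGFR1 bind endocrine FGFs, rose with sunitinib (3.48 on the log2 scale, SE 0.88, adjusted p = 0.0464) and was lower in R+S than in sunitinib (-3.44, SE 0.88, adjusted p = 0.0408). Its 33.2 CPM in tumor 6 and 12.5 CPM in tumor 12 carried this: the other sunitinib tumors had 1.56 and 3.22 CPM, controls 0.406 to 1.93 CPM and R+S tumors 0.817 to 1.93 CPM. Without tumor 6 neither call passed (2.34 and -2.30, adjusted p = 0.0851 and 0.0575), nor without tumor 12, and the sunitinib call was lost without any 1 control and the other without any 1 R+S tumor, where at most 1.86% of all tested genes were called. Of 20 other FGF ligands, 8 were tested and 0 called (edgeR, 2, 1 and 3 at an unadjusted p under 0.05 in the 3 comparisons). DESeq2 called Fgf21 higher with sunitinib (adjusted p = 0.0442), Fgf21 lower in R+S than in sunitinib (0.0146) and Fgf9 higher there (0.0257), named here after their values had been seen.

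Of 14 genes of HGF activation and MET partnership tested, Hpn, which encodes hepsin, a serine protease that cleaves pro-HGF, rose with sunitinib, from 1.16, 0.397, 0.609 and 0.423 CPM in controls to 3.57, 7.02, 5.73 and 1.73 CPM (2.79, SE 0.48, adjusted p = 0.0055). It had 1.17, 2.12, 1.31 and 1.63 CPM with R+S, and without tumor 6 the sunitinib value was 2.49 (adjusted p = 0.00841). Acinar markers, of which 22 of 24 tested were called higher in each treated group, rose with sunitinib, as Hpn and Klb did. In R+S against control the median of the tested acinar markers was 8.40 on the log2 scale. Hpn was 1.26 (SE 0.47) there and Klb 0.04 (SE 0.82), and neither was called. Some duct markers also rose with sunitinib: 2 of 8, Spp1 (3.10 on the log2 scale) and Muc1 (2.78), were called higher with sunitinib and 0 with R+S (edgeR, 4 and 2 at an unadjusted p under 0.05). The 8 summed to 270 to 622 CPM with sunitinib, 369 to 468 CPM with R+S and 389 to 511 CPM in controls. The part of either list was not tested. With the acinar covariate the sunitinib value of Hpn turned to -1.27 (SE 1.35). Values of that covariate did not overlap between control and treated tumors, and 0 of 16645 genes passed with it. Covariate and treatment thus cannot be told apart in that fit. Plxnb1, a semaphorin receptor that can associate with MET, was higher in R+S than in sunitinib: it had 184, 176, 163 and 165 CPM in R+S, 103, 65.7, 112 and 66.9 CPM with sunitinib and 99.0, 114, 129 and 126 CPM in controls (0.99, SE 0.18, adjusted p = 0.0242 for R+S against sunitinib). This call was lost without R+S tumor 4, 5 or 7, where 1, 0 and 1 of all tested genes were called in place of 1200. All 4 R+S tumors lay above the sunitinib tumors, as for 8.9% of tested genes, and above the controls, as for 11.6%.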

How the data were processed

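RNA-seq libraries were made from total RNA of 12 PanNETs with a stranded mRNA kit. The authors deposited raw counts of reads per Ensembl gene for each tumor. Per the labels, reads were trimmed with cutadapt 1.2.1, aligned with TopHat2 2.0.9 to GRCm38 and counted with HTSeq 0.5.4p3; the annotation release and the strand setting are not given in the sources used here. Reads aligned to several places (21203479 to 48418780 alignments per tumor) were not counted, and reads on no gene (11.1% to 18.8% of the others) were left out.

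Groups came from the sample labels. Symbols and loci were taken from GENCODE M21 (37607 of 38924 identifiers matched), and promoters from RefSeq. Genes passing filterByExpr (minimum count 10, minimum total 15) were scaled by TMM and tested in edgeR 4.0.16 by its quasi-likelihood F-test (R 4.3.3, limma 3.58.1), all 12 tumors in 1 fit, Benjamini-Hochberg adjustment over 16645 genes and a threshold of 0.05. SE is the absolute log2 fold change over the square root of F, and intervals are 95%. Two-sided exact permutation tests of log2 CPM (prior count 2) ran over 70 arrangements. Nothing says that tumors came from separate mice, so p-values measure the spread between these tumors. In simulated counts for sunitinib against control (16494 genes), 80 of 100 genes changed by 2 on the log2 scale and 41 of 100 changed by 1 were recovered, with 1 false call.

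The members and lists were chosen with earlier results of these data known. Named genes are the 10 members and, from the other lists, called genes (at most 3 per direction and comparison), plus those stated to have been picked later. Alternatives were DESeq2 1.42.0, other normalizations and filters, only the 8 tumors compared, an acinar covariate, tumors of 1 prefix summed, and each tumor left out.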

Additional observations from a re-analysis of the deposited data

Results flagged for a closer look

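In 30 groups of 4 tumors (10 members in 3 groups), the gap between an extreme tumor and its nearest neighbour was compared with the range of the group, and 3 gaps exceeded Dixon's 95% critical value; chance gives about 1 in 20 groups. Fgfr4 in sunitinib tumor 6 was 43.3 CPM, the highest of its group, with a gap of 0.959 of the range. Efna1 in the same tumor was 14.4 CPM, also the highest, with a gap of 0.941. Fgf2 in R+S tumor 10 was 0.248 CPM, the lowest of its group, with a gap of 0.878, and rested on 10 reads.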

How the results depend on the processing

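Member fold changes were counted under settings other than each tumor left out in turn. The fit with tumor 6 left out of the shared spread is among these settings. Of the values, 231 kept their direction and side of the threshold, 11 turned and 4 moved past it. Efna1 in R+S against control passed with DESeq2 (-1.53), the 8 tumors alone (-1.54), prefixes summed (-1.51) and tumor 6 left out of the shared spread (-1.53, chosen after seeing the data), so that 1 member was called there in place of 0. With an acinar covariate, whose values did not overlap between control and treated tumors, directions turned in sunitinib against control for Fgf1 (-2.31), Fgf2 (4.15), Fgfr3 (-4.68), Fgfr4 (-1.06), Hgf (-0.34) and Efna2 (0.15), and in R+S against control for Fgf1 (-1.70), Fgfr2 (0.059), Fgfr3 (-3.60) and Met (2.15), each with an adjusted p near 1. With prefixes summed, Fgfr2 turned to 0.035. The cause was not tested. Other pathway genes called in sunitinib against control numbered 4, and 7 with DESeq2, 2 without a filter, 2 with 10 reads in every tumor, 2 with 8 tumors and 0 with the covariate. In R+S against control they numbered 2, and 7, 1, 1, 16 and 0 in those settings, 4 with prefixes summed and 14 with tumor 6 left out of the spread. The share of all genes called moved too: in sunitinib against control it was 4.48%, and 8.87%, 2.58%, 2.85%, 2.33% and 0% in those settings, and in R+S against control 4.16%, and 10.1%, 1.89%, 3.32%, 15.8%, 0%, 3.92% and 9.67%. In R+S against sunitinib they numbered 3, and 11 with DESeq2, 1 without a filter, 0 with 8 tumors and 1 with the covariate, beside 7.21%, 18.3%, 1.91%, 0.0186% and 2.01% of all genes. Leaving out each tumor gave 2 to 8 of these genes in sunitinib against control (8 without sunitinib tumor 6, 2 without any 1 control or sunitinib tumor 12), 1 to 2 in R+S against control and 0 to 6 in R+S against sunitinib (6 without sunitinib tumor 5, 0 without R+S tumor 4, 5 or 7). It gave 0 to 1 members in the first comparison (Efna1, without sunitinib tumor 6) and 0 in the others. It turned the direction of members over these ranges: in sunitinib against control Fgf1 -0.63 to 0.63, Fgf2 -0.87 to 0.19, Fgfr2 -0.0087 to 0.38, Fgfr3 -0.40 to 1.07, Fgfr4 -0.51 to 0.52, Hgf -0.083 to 0.69; in R+S against control Fgf1 -0.17 to 0.81, Fgfr2 -0.18 to 0.10, Fgfr4 -0.14 to 0.11; in R+S against sunitinib Fgf1 -0.51 to 1.10, Fgfr1 -0.49 to 0.32, Fgfr3 -0.26 to 1.09, Fgfr4 -0.56 to 0.47, Efna1 -0.97 to 0.15. No paired analysis was possible because the groups share fewer than 2 replicate numbers. With few reads, Fgf2 and Hgf are limited by depth.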
